A study of Mus musculus with 6 samples.

Results

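Genes that mark recruited inflammatory monocytes and young macrophages were followed in colon RNA of Adamts4 knockout (KO) and wild-type (WT) mice after dextran sodium sulfate (DSS) colitis. The set was given by name: Ly6c2, Ccr2, Cd14, Itgam, Lyz2, Arg1 and Plac8, which are 7 of the 21899 genes in the deposited table. A further 2 of the 9 listed names, written Vcan_excluded and Thbs1_excluded, have no row and were not used. All 7 genes passed the filter on low counts. The rule that names them uses no measured value, but they were chosen with earlier results of these data known.

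The KO group holds 3 colon libraries from mice lacking ADAMTS4, a secreted protease that cleaves large matrix proteoglycans, and the WT group holds 3 from wild-type mice. Both groups received 2.5% DSS for 7 days. DSS injures the colon epithelium and draws blood leukocytes into the wall. Total RNA came from whole colon tissue, so epithelial, stromal, blood and immune RNA were measured together. The sources used here do not give the knockout allele, nor the strain, age or sex of the mice. A difference in genetic background and the loss of Adamts4 therefore cannot be told apart. Libraries are numbered within a genotype, and nothing ties each number to a separate animal. The p-values thus describe spread among libraries, which may be technical. Untreated mice were not analysed here.

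Blood monocytes with high LY6C leave the bone marrow by the receptor CCR2 and enter inflamed gut along gradients of CCL2 and CCL7. In healthy colon such cells replenish the resident macrophages and lose LY6C as they mature. In colitis many stop at an inflammatory stage that makes cytokines such as IL-1beta and responds strongly to bacterial lipopolysaccharide. Several of the 7 genes are also used outside monocytes. Neutrophils share Itgam, Cd14 and Lyz2, and intestinal epithelium can express Plac8.

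Adamts4 checked the genotype labels. Every KO library had 0 counts of it, and WT 1, WT 2 and WT 3 had 900, 992 and 997. Total counts ran from 15786214 to 22932125 per library. Colon markers were abundant in every library, with Muc2, the main mucin of goblet cells, at 9170 to 22800 CPM (counts scaled to library size, here with TMM factors). KO 3 lay farthest from the rest on the leading principal component, with a score of 63.4 against -43.5 to 23.1. Mitochondrially encoded genes took 9.5% of counts in KO 3 and 7.66% in KO 2, against 4.03% to 6.05% in the other libraries, and the part of this in the values below was not tested. The summed level of 10 fibroblast markers was 734 CPM in KO 3 and 2387 to 4798 CPM in the other libraries.

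None of the 7 genes passed edgeR's quasi-likelihood test at a Benjamini-Hochberg adjusted p below 0.05 over all 14553 genes tested. All 7 had fold changes on the lower side in KO, with a median log2 fold change of -0.60 against 0.03 for all genes tested. Of all genes tested, 45.8% had a log2 fold change below 0, 0.151% were called lower and 0.00687% higher. The unadjusted p was below 0.05 for 2 members, Cd14 and Itgam, as it was on the lower side for 7.85% of all genes. The same 2 members were the ones whose KO values all lay below their WT values, which held for 10.2% of genes. DESeq2 called 1 member lower, Itgam, against a background of 2.75%, and limma-voom called none, against 0.186%. Without KO 3, DESeq2 called none, against 2.42%. In bulk tissue, fewer cells of a type and less RNA per cell cannot be told apart, and this applies to each level below. The shares over all genes given here are also the background for the counts in each gene list below.

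**Figure D1:**
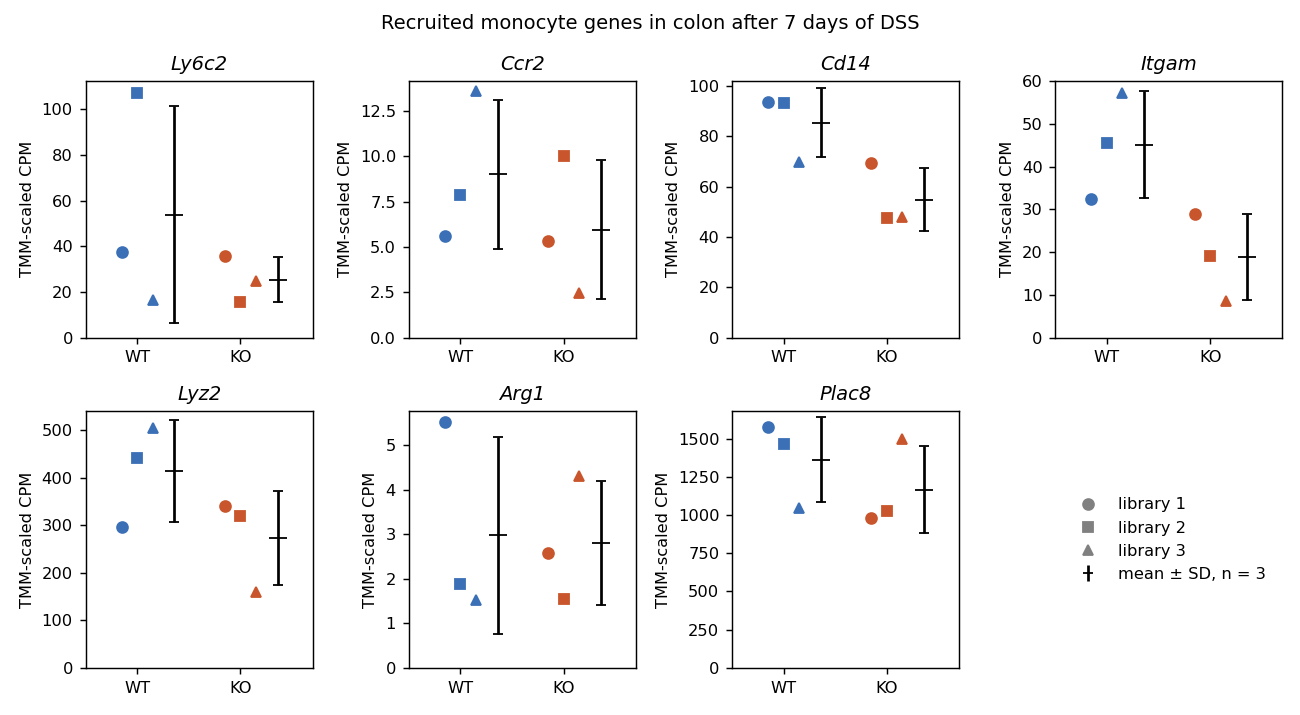
TMM-scaled CPM (vertical axes, from 0) of the 7 genes in each WT and KO library, with marker shape for the library number and bars for mean ± SD of 3 libraries. KO and WT points are separate for Cd14 (47.5 to 69.4 against 69.7 to 93.5 CPM) and Itgam (8.69 to 28.9 against 32.4 to 57.3 CPM), and overlap for the other 5 genes.

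The 7 genes covered a wide range of abundance. In TPM, the values the authors scaled by transcript length and library size, averaged over 6 libraries, Plac8 was the most abundant at 3064 TPM, followed by Lyz2 at 476 TPM. Ly6c2 averaged 93.3 TPM and Cd14 77.7 TPM, and each exceeded the other in 3 of 6 libraries. Itgam averaged 12.7 TPM. Ccr2 at 4.03 TPM and Arg1 at 3.49 TPM were the scarcest, and again each exceeded the other in 3 of 6 libraries. Lyz2 exceeded Ly6c2, and Itgam exceeded Ccr2, in all 6 libraries, although their ranges over the libraries overlapped. Plac8 and Lyz2, and likewise Cd14 and Itgam, had ranges that did not overlap. Which cells supplied the Plac8 RNA was not tested.

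Ly6c2 encodes the LY6C antigen of inflammatory monocytes (ENSMUSG00000022584, chromosome 15, 75108158 to 75111970, minus strand, GRCm38). It lies beside Ly6c1 (75044018 to 75048830), which is known from endothelial cells. The coding sequences of the main transcripts, Ly6c2-201 and Ly6c1-201, are each 393 bases long and differ at 9 positions, an identity of 97.71%. The first 90 coding bases hold 6 of these differences and are shown because reads from the pair can be told apart only where they cover such positions. They come from the GENCODE M21 transcripts, read 5′ to 3′, with capitals at the bases that differ between the pair:
Ly6c2: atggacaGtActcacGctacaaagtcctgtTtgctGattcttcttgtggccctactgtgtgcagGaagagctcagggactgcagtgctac
Ly6c1: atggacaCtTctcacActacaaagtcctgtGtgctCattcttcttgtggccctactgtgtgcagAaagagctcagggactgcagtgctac
Of all stretches of 50 bases in Ly6c2-201, 32.6% occur unchanged in a Ly6c1 transcript, and 15.8% of those of 100 bases. How the authors' counting placed such reads is not given in the sources used here, so the split between the pair is uncertain.

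Ly6c2 had 37.5, 107 and 16.5 CPM in WT 1, WT 2 and WT 3, and 35.6, 15.7 and 24.9 CPM in KO 1, KO 2 and KO 3. The WT libraries spanned a 6.50-fold range, wider than the difference between the group means of 53.8 ± 47.5 and 25.4 ± 9.97 CPM (SD, n = 3). WT 2 alone stood high, and WT 3 lay with the lowest KO library. The log2 fold change was -1.08 ± 0.61 (SE; 95% interval -2.48 to 0.32; edgeR adjusted p = 0.492), and without WT 2 it was -0.09. The neighbour Ly6c1 had 179, 150 and 161 CPM in WT and 62.6, 47.2 and 43.2 CPM in KO, and it fell by 1.68 ± 0.17 on the log2 scale (edgeR adjusted p = 0.0287). Leaving out each of the 6 libraries in turn, edgeR called Ly6c1 only without KO 1 (adjusted p 0.0201 to 0.180, log2 fold changes -1.85 to -1.57). DESeq2 called it with and without KO 3.

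The difference between the neighbours was then measured as the share of Ly6c2 among the reads of both genes. This share was 17.3%, 41.7% and 9.27% in WT 1 to WT 3, with 95% Wilson intervals of 16.3% to 18.4%, 40.3% to 43.1% and 8.31% to 10.3%. In KO 1 to KO 3 it was 36.2%, 24.9% and 36.6%, with intervals of 34.1% to 38.4%, 22.4% to 27.7% and 34.0% to 39.3%. These intervals cover counting error only. The WT libraries differed from each other far beyond counting error, and the groups overlapped. Averages of 22.8% ± 16.9 in WT and 32.6% ± 6.63 in KO (SD, n = 3) had a two-sided p of 0.4 in an exact permutation test, where 0.1 is the smallest that 3 against 3 allows. A difference in the response of the neighbours was thus not shown.

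**Figure D2:**
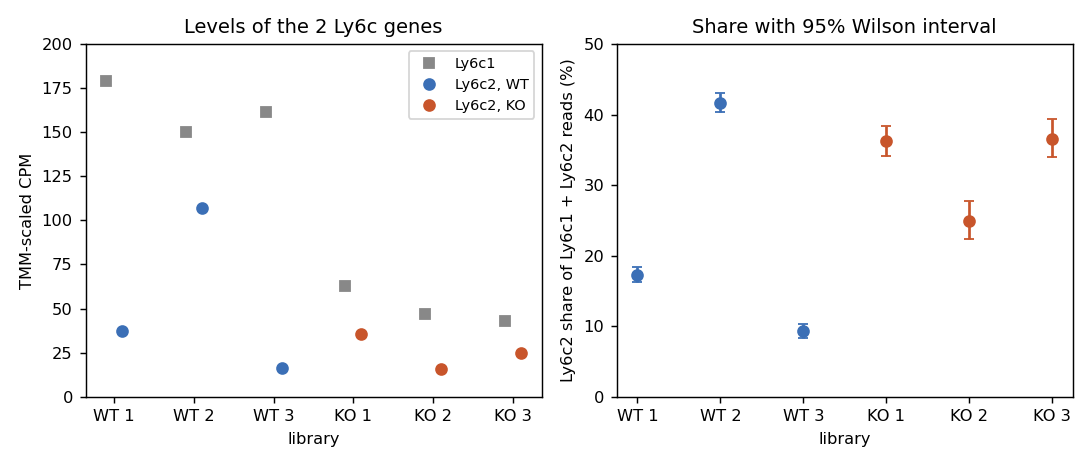
Left, TMM-scaled CPM of Ly6c1 (grey squares) and Ly6c2 (circles) in each library; right, the Ly6c2 share of the reads of both genes in percent with 95% Wilson intervals. Ly6c1 lies between 150 and 179 CPM in WT and between 43.2 and 62.6 CPM in KO, while the Ly6c2 share overlaps between the groups.

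The regions just upstream of these neighbours are less alike than their coding parts. The windows below are the 250 bases before the most upstream RefSeq start of each gene (GRCm38.p6), at chr15:75111972-75112221 for Ly6c2 and chr15:75048838-75049087 for Ly6c1, both on the minus strand. They are shown because the levels of the pair differed across these libraries. A global alignment gave 57.7% identical columns. Capitals mark the core letters GAGGAAG of sites for PU.1, a transcription factor of the myeloid lineage, searched on both strands:
Ly6c2 upstream: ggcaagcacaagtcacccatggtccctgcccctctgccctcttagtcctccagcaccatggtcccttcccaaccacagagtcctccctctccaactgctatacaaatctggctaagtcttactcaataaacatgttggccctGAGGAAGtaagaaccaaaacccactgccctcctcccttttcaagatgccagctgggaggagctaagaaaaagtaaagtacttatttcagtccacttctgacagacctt
Ly6c1 upstream: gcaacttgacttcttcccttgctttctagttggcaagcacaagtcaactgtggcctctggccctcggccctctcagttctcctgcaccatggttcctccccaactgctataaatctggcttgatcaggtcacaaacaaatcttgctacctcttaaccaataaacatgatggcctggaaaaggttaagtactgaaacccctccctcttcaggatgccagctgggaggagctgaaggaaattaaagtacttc
The Ly6c2 window holds 1 match and this Ly6c1 window holds 0, while the windows of a second annotated start hold 2 for Ly6c2 and 1 for Ly6c1. Of all 32851 windows of this length in the table, 10.6% hold the letters. A match is a description of the letters and not a measured site.

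Ccr2 encodes the chemokine receptor that monocytes need to leave the marrow (ENSMUSG00000049103, chromosome 9, 124101950 to 124113557, plus strand). It had 5.602, 7.84 and 13.6 CPM in WT 1 to WT 3 and 5.34, 10.04 and 2.47 CPM in KO 1 to KO 3. KO 2 lay above WT 1 and WT 2, and only KO 3 lay well below every WT library. The log2 fold change of -0.60 ± 0.51 (95% interval -1.78 to 0.58; edgeR adjusted p = 0.665) became -0.23 without KO 3, -0.18 without WT 3 and -1.20 without KO 2. Counts of 46 to 242 reads per library stood behind these values. The related receptor gene Ccr1 was lower without overlap (-1.15 ± 0.35, edgeR adjusted p = 0.235). Of 15 relatives of the 7 members, 12 lay below 0 and 3 fell in DESeq2 (2.75% of all genes). These 3 were Ly6c1, Ccr1 and Ly6g, whose groups overlapped for Ly6g only. Without KO 3, DESeq2 called 1 of the 15 (2.42% of all genes).

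The ligands of CCR2 were lower in part. Ccl2, the main monocyte chemoattractant, had 17.2, 30.9 and 11.9 CPM in WT and 7.65, 5.39 and 1.99 CPM in KO, with no overlap (log2 fold change -1.99 ± 0.51). Ccl7, a second ligand, had 9.15, 23.6 and 13.9 CPM in WT and 8.37, 3.90 and 1.77 CPM in KO (-1.73 ± 0.55). Neither passed in edgeR (adjusted p = 0.176 and 0.258), and both fell in DESeq2 (adjusted p = 0.00152 and 0.0223). Ccl8 (-1.41 ± 0.69) and Ccl12 (0.17 ± 0.53) overlapped between the groups. In DESeq2 without KO 3, Ccl2 was the 1 of 4 ligands called lower.

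Itgam encodes the alpha chain of the adhesion and complement receptor CR3, also called CD11b (ENSMUSG00000030786, chromosome 7, 128062640 to 128118491, plus strand). It had 32.4, 45.6 and 57.3 CPM in WT 1 to WT 3 and 28.9, 19.1 and 8.69 CPM in KO 1 to KO 3. Every KO library lay below every WT library, with KO 1 close to WT 1 and KO 3 lowest. The means of 45.1 ± 12.5 and 18.9 ± 10.1 CPM (SD, n = 3) differed 2.39-fold, a log2 fold change of -1.25 ± 0.41 (95% interval -2.18 to -0.32; edgeR adjusted p = 0.261). Itgam fell in DESeq2 (adjusted p = 0.0361). That call was lost without KO 3, where the log2 fold change was -0.90 and DESeq2's adjusted p 0.0777. Without KO 1 the edgeR log2 fold change was -1.70 (edgeR adjusted p = 0.1045). The authors' deposited table lists Itgam with a false discovery rate of 0.0408, the only one of the 7 below 0.05 there. The 250 bases before the Itgam start (chr7:128062390-128062639, plus strand, GRCm38.p6) are shown because Itgam had the largest fold change of the 7; capitals mark the PU.1 core letters:
Itgam upstream: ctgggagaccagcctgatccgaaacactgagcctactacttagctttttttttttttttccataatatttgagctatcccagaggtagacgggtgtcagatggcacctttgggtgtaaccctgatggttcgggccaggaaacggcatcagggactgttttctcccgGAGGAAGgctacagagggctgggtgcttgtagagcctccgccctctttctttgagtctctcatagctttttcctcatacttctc
This window holds 1 match, as 10.6% of all windows do at least once. The windows of Ccr2, Lyz2 and Plac8 held 0. The C/EBP core letters TTGCNNAA were found in 1 window of a second Plac8 start and in no window of Itgam, Ccr2, Lyz2 or Ly6c2, against 9.56% of all windows. Spi1, the gene of PU.1, was itself at 18.3, 22.7 and 20.6 CPM in WT and 20.8, 13.2 and 8.32 CPM in KO (-0.54 ± 0.31, edgeR adjusted p = 0.505).

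Genes that act with CD11b gave few calls. Itgb2, the beta chain it pairs with, had 32.2, 55.3 and 56.1 CPM in WT and 39.8, 25.2 and 21.7 CPM in KO (log2 fold change -0.73 ± 0.29, edgeR adjusted p = 0.351), and KO 1 lay above WT 1. Icam1, an endothelial and epithelial ligand, had 38.2, 50.6 and 39.6 CPM in WT and 30.0, 16.0 and 12.6 CPM in KO (-1.13 ± 0.32). It fell in DESeq2 (adjusted p = 0.0169) and not in edgeR (0.207). Of 7 tested genes of this integrin list 6 had fold changes below 0 and 0 were called in edgeR. An unadjusted edgeR p below 0.05 was reached by 5, against 7.85% of all genes on the lower side. DESeq2 called 2 of the 11 listed genes lower, Icam1 and the fibrinogen chain Fga, which edgeR's filter left out; without KO 3 it called Fga only. The related alpha chains Itgax (-0.73 ± 0.34), Itgal (-0.71 ± 0.33) and Itgad (0.05 ± 0.59) overlapped between the groups.

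**Figure D3:**
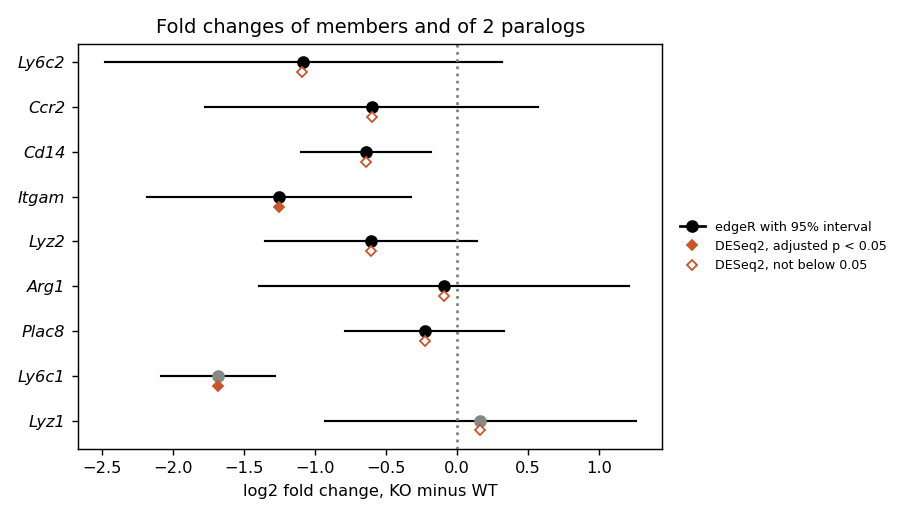
Log2 fold changes, KO minus WT, of the 7 genes and of the paralogs Ly6c1 and Lyz1 (horizontal axis), from edgeR with 95% intervals (circles and lines) and from DESeq2 (diamonds, filled where its adjusted p was below 0.05). Among the 7 genes only the intervals of Cd14 and Itgam lie wholly below 0, and only Itgam has a filled diamond.

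Cd14, the coreceptor that hands lipopolysaccharide to TLR4 (ENSMUSG00000051439), had 93.5, 93.2 and 69.7 CPM in WT 1 to WT 3 and 69.4, 47.5 and 47.8 CPM in KO 1 to KO 3. The groups did not overlap, but KO 1 and WT 3 were nearly equal. The means of 85.5 ± 13.7 and 54.9 ± 12.6 CPM (SD, n = 3) gave a log2 fold change of -0.64 ± 0.20 (95% interval -1.09 to -0.18; edgeR adjusted p = 0.246; DESeq2 0.108). The value lay between -0.84 and -0.54 in all 15 alternative fits, the narrowest span of the genes whose groups did not overlap. For Cd14 and Itgam the exact two-sided permutation p was 0.1, the smallest that 3 against 3 allows.

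The partners of CD14 gave no call. Tlr4, the signalling receptor, had 23.9, 23.1 and 20.9 CPM in WT and 11.9, 26.6 and 9.55 CPM in KO, with KO 2 above every WT library (log2 fold change -0.50 ± 0.36). Ly96, its MD-2 partner, stood at -0.06 ± 0.29, and the adaptor Myd88 at -0.22 ± 0.15. Lbp, the plasma protein that loads CD14, was lowest in KO 3 at 7.62 CPM and highest in WT 3 at 49.5 CPM (-1.09 ± 0.47, edgeR adjusted p = 0.382). Of 9 genes in this list 8 had fold changes below 0, with a median of -0.22. None passed in edgeR or in DESeq2, and 1 had an unadjusted edgeR p below 0.05.

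Lyz2 encodes the lysozyme of macrophages and neutrophils (ENSMUSG00000069516, chromosome 10, 117277331 to 117282321, minus strand). It had 295, 441 and 505 CPM in WT 1 to WT 3 and 340, 319 and 159 CPM in KO 1 to KO 3. KO 1 and KO 2 lay above WT 1, and KO 3 was lowest. The log2 fold change of -0.60 ± 0.32 (95% interval -1.35 to 0.14; edgeR adjusted p = 0.469) became -0.33 without KO 3. Its neighbour Lyz1, the lysozyme of Paneth cells, had 1.67 to 5.73 CPM in WT and 2.93 to 5.58 CPM in KO (0.17 ± 0.48). Lyz2 took 96.6% to 99.4% of the reads of the pair in every library. The pair differs at 22 of 444 coding bases (identity 95.05%), and 15.4% of all 50-base stretches of Lyz2-201 occur unchanged in Lyz1. The stretch from coding base 43 to 132 holds 13 of the differences and is shown because it separates the pair, with capitals where the bases differ:
Lyz2: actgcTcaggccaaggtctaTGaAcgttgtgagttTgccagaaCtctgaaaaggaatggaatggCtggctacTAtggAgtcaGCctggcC
Lyz1: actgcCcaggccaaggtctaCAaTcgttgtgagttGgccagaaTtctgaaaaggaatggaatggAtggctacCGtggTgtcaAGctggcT

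Arg1 encodes arginase 1, which converts arginine to ornithine in monocytes and wound macrophages (ENSMUSG00000019987, chromosome 10, 24915221 to 24927484, minus strand). It had 5.52, 1.89 and 1.52 CPM in WT 1 to WT 3 and 2.57, 1.55 and 4.29 CPM in KO 1 to KO 3. WT 1 and KO 3 were high, and the other libraries of both groups were mixed. The means of 2.97 ± 2.21 and 2.80 ± 1.39 CPM (SD, n = 3) gave a log2 fold change of -0.09 ± 0.57 (edgeR adjusted p = 0.961). Its 95% interval of -1.39 to 1.21 does not exclude a change of more than 1 log2 unit either way. It had 25 to 129 reads per library. The direction turned in 4 of the 15 alternative fits, to 0.72 without WT 1.

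Nos2, which uses the same substrate to make nitric oxide, had 87.6, 284 and 198 CPM in WT and 101, 51.9 and 26.5 CPM in KO (log2 fold change -1.67 ± 0.53, edgeR adjusted p = 0.258; DESeq2 0.192). Its KO 1 value lay above WT 1. Slc7a2, an arginine transporter, had 5.30, 3.82 and 4.55 CPM in WT and 2.36, 1.67 and 1.503 CPM in KO. It fell in DESeq2 (-1.30 ± 0.31, DESeq2 adjusted p = 0.0200), as did Ido1, which degrades tryptophan (-1.71 ± 0.46, DESeq2 adjusted p = 0.00305), and neither passed in edgeR (0.152 and 0.194). Odc1, which turns ornithine into polyamines, had 146, 167 and 162 CPM in WT and 223, 174 and 232 CPM in KO, with every KO library higher (0.40 ± 0.16, edgeR adjusted p = 0.350). Of these 9 genes, 5 lay below 0 and 4 above, with a median of -0.02. DESeq2 called none of them without KO 3.

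Plac8, a small cysteine-rich protein of monocytes and other leukocytes and of gut epithelium, is the most abundant of the 7 (ENSMUSG00000029322, chromosome 5, 100553725 to 100572245, minus strand). It had 1574, 1467 and 1047 CPM in WT 1 to WT 3 and 979, 1026 and 1495 CPM in KO 1 to KO 3. KO 3 lay with the high WT libraries and WT 3 with the low KO libraries. The log2 fold change was -0.22 ± 0.24 (95% interval -0.78 to 0.34; edgeR adjusted p = 0.737). Plac8 was high in KO 3, the library where Itgam, Ccr2 and Lyz2 were lowest.

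The 7 genes did not follow a single profile over the libraries. Measured from the WT mean of log2 CPM, KO 3 was at -2.34 for Itgam, -1.77 for Ccr2 and -1.35 for Lyz2. Csf1r, the growth factor receptor of all monocytes and macrophages, was at -2.15 there. In that same library Arg1 stood at 0.78 and Plac8 at 0.16. WT 3 was the highest library for Itgam, Ccr2 and Lyz2 and, at -0.73, the lowest for Arg1. Ly6c2 peaked in WT 2 at 1.41, where no other member stood above 0.14.

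**Figure D4:**
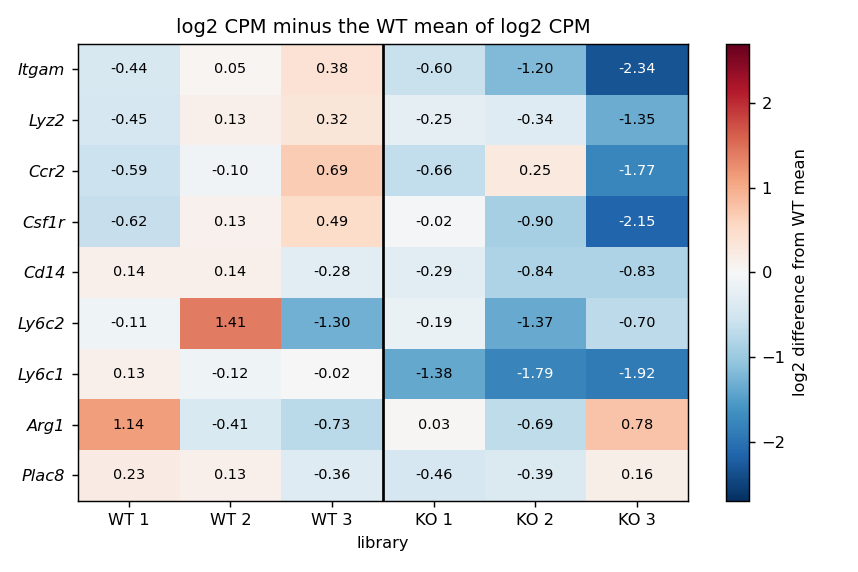
Log2 CPM of 9 genes (rows; the 7 members, Csf1r and Ly6c1) in each library (columns), minus the gene's mean of log2 CPM over the WT libraries, with the value in each cell. Itgam, Lyz2, Ccr2 and Csf1r are lowest in KO 3, where Arg1 (0.78) and Plac8 (0.16) lie above their WT mean.

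Genes with the most similar profiles were listed for each member by the root mean square difference of centred log2(CPM + 1) values over the 6 libraries, 2 genes each, as a description. For Itgam these were Apoe (0.0988), a lipid carrier made by macrophages among others, and Clec4n (0.114), the fungal receptor dectin-2 of myeloid cells. For Lyz2 they were Daam2 (0.0815), a formin of Wnt signalling, and Timp3 (0.0901), a matrix protease inhibitor. For Ccr2 they were Chrdl1 (0.191), a BMP antagonist, and Creb5 (0.192), a transcription factor. For Cd14 they were Tamalin (0.0806) and Nfkb2 (0.0890), an NF-kappaB subunit. For Ly6c2 they were Retnlb (0.392), a goblet cell product, and the immunoglobulin segment Ighv1-22 (0.397), at larger distances than for any other member. For Arg1 they were Iqcg (0.132) and Mogat2 (0.210), an enzyme of fat absorption. For Plac8 they were Vav2 (0.0585), a GTPase activator, and Trpm4 (0.0673), a cation channel.

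Each member was also set against a single reference gene within its library. Itgam per Csf1r was lower in KO, at a log2 ratio of -1.61 ± 0.20 against -1.25 ± 0.15 in WT (SD, n = 3), with no overlap. Lyz2 per Itgam was higher in KO, at 3.93 ± 0.33 against 3.20 ± 0.07, again with no overlap. For both, the exact two-sided permutation p was 0.1, the smallest possible. These were 2 of 20 ratios, a share no larger than that p, and both contain Itgam, itself without overlap. They are given as a description only. The other ratios overlapped between the groups, 20 in all having been formed with Csf1r, with the pan-leukocyte gene Ptprc and with Itgam. Ccr2 per Csf1r, for example, was -3.34 ± 0.90 in KO and -3.64 ± 0.22 in WT.

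Other genes of classical monocytes were mostly on the lower side. Of 20 such genes 19 had log2 fold changes below 0 (median -0.70) and 0 were called in edgeR. An unadjusted p below 0.05 was reached by 8 (7.85% of all genes, lower side), and 6 fell in DESeq2 (2.75% of all genes). These 6 were Chil3, Hp, Ifitm6, Clec4e, Clec4d and Trem1, which neutrophils are also known to express. Chil3, the chitinase-like protein YM1, had 69.4, 33.0 and 23.5 CPM in WT and 4.88, 1.18 and 1.56 CPM in KO (-4.03 ± 0.62, edgeR adjusted p = 0.0595). Hp, haptoglobin, had 121, 107 and 286 CPM in WT and 42.2, 15.2 and 29.1 CPM in KO (-2.57 ± 0.47, edgeR adjusted p = 0.0848). The rest of the 8, Sirpa (-0.74 ± 0.29) and Ms4a6c (-0.87 ± 0.35), had every KO library below every WT library. Neither passed in edgeR or DESeq2. Fcgr1, the high-affinity IgG receptor, stood at -0.54 ± 0.40 and the transglutaminase F13a1 at -0.97 ± 0.71. Both overlapped between the groups, and neither passed in either test. The list's median was -0.46 without KO 3, where DESeq2 called 5 members lower, and -1.08 without KO 1.

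Cytokines and other products that inflammatory monocytes make, among other cells, were largely on the lower side. Of 12 tested genes 11 lay below 0 (median -1.80, or -1.61 without KO 3) and 0 were called in edgeR. An unadjusted p below 0.05 was reached by 9 (7.85% of all genes, lower side), and 6 fell in DESeq2 (2.75% of all genes). Without KO 3, DESeq2 called 3. Ptgs2, with the smallest p of this list, had 32.7, 37.5 and 30.4 CPM in WT and 5.14, 10.5 and 2.63 CPM in KO. Its log2 fold change was -2.465 ± 0.43 (edgeR adjusted p = 0.0742). Il1b had 51.5, 46.6 and 31.7 CPM in WT and 13.2, 16.2 and 4.88 CPM in KO (-1.92 ± 0.41, edgeR adjusted p = 0.116; DESeq2 9.70e-05). Il1a, the other interleukin 1, stood at -2.81 ± 0.51 and Osm, oncostatin M, at -1.61 ± 0.42, each with every KO library below every WT library. Tnf overlapped between the groups (-0.82 ± 0.46), as did Cxcl10 (0.19 ± 0.61).

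Growth factors and regulators of the lineage gave few calls. Csf2rb, the shared receptor chain for GM-CSF, IL-3 and IL-5, had 27.6, 50.6 and 46.5 CPM in WT and 23.8, 17.0 and 15.6 CPM in KO. Its edgeR log2 fold change was -1.14 ± 0.27 (edgeR adjusted p = 0.153). It was the only 1 of the 9 listed to fall in DESeq2 (adjusted p = 0.00409). Csf1r had 68.4, 114 and 147 CPM in WT and 103, 56.3 and 23.6 CPM in KO (-0.85 ± 0.49, edgeR adjusted p = 0.5). Among 9 tested transcription factors, Cebpd (-1.14 ± 0.29) and Cebpb (-0.87 ± 0.25), which drive myeloid and acute-phase genes, fell in DESeq2 (adjusted p = 0.00645 and 0.0348). Irf8, needed for monocyte development, stood at -0.01 ± 0.19 and Klf4 at 0.17 ± 0.26. Of 6 tested genes of alternative activation, 2 fell in DESeq2, Chil3 again and Il4ra (DESeq2 adjusted p = 0.0207). The edgeR log2 fold change of Il4ra was -0.73 ± 0.18. Mrc1 (-0.92 ± 0.68) and Retnla (0.54 ± 0.75) overlapped between the groups. Of 10 genes of nonclassical monocytes, 9 lay below 0 and 2 fell in DESeq2, Nr4a1 (-0.96 ± 0.28) and Fabp4 (-1.24 ± 0.39). In these 4 lists, DESeq2 without KO 3 called Csf2rb, Cebpd, Chil3 and Fabp4 and no other gene.

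Markers of other cells were summed in the same libraries. The summed level of 18 neutrophil markers was 502, 194 and 266 CPM in WT and 108, 78.3 and 67.8 CPM in KO. Of 14 tested, 14 lay below 0 (median -2.16) and 8 fell in DESeq2 (6 without KO 3), against 2.75% of all genes (2.42% without KO 3). Cxcr1 had no count in any library. The 16 resident macrophage markers summed to 1305, 1768 and 2047 CPM in WT and 1296, 946 and 476 CPM in KO. Apoe alone made up 774, 997 and 1114 CPM of this in WT and 615, 410 and 223 CPM in KO. It was the only 1 of the 16 whose groups did not overlap. Of the 16 markers, 14 lay below 0 (median -0.71, or -0.41 without KO 3) and 1, Apoe, fell in DESeq2 (adjusted p = 0.00960). The edgeR log2 fold change of Apoe was -1.21 ± 0.35. C1qa, a complement subunit made by macrophages, stood at -0.81 ± 0.33. Pan-leukocyte markers summed to 324, 470 and 509 CPM in WT and 347, 276 and 315 CPM in KO, with 8 of 8 below 0 (median -0.52). Colon epithelium markers summed to 21600 to 27540 CPM in WT and 29070 to 36020 CPM in KO, with 9 of 11 above 0. Their median log2 fold change was 0.28, or 0.06 without KO 3. None was called in edgeR or DESeq2, and only Epcam had every KO library above every WT library. Endothelial markers summed to 406 to 457 CPM in WT and 115 to 347 CPM in KO. All 10 lay below 0 (median -0.79, or -0.46 without KO 3), and 2 fell in DESeq2 (2 without KO 3). The 10 smooth muscle markers summed to 2280 to 3627 CPM in WT and 3953 to 4758 CPM in KO. Medians were -0.41 for dendritic cell, -0.34 for B and plasma cell, -0.22 for T and NK cell, -1.79 for eosinophil and mast cell and -2.31 for blood genes, with 1, 3, 1, 2 and 2 genes lower in DESeq2. Without KO 3 the medians were -0.42, -1.57, -0.85, -2.13 and -2.46, with 0, 6, 3, 1 and 0 genes lower in DESeq2. Without KO 1 the B and plasma cell median was -0.14 and the T and NK cell median 0.11. The part of these differences in the values of the 7 genes was not tested.

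**Figure D5:**
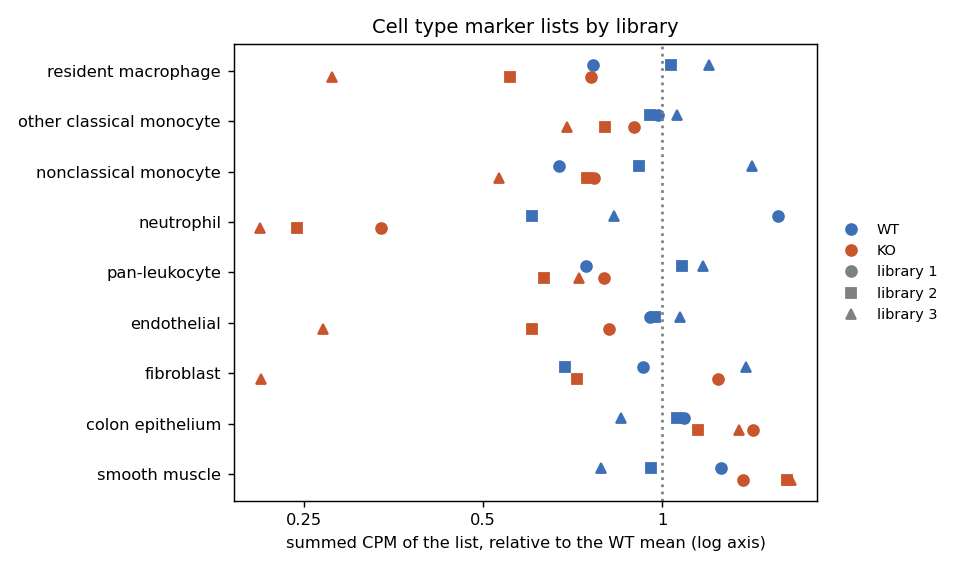
Summed CPM of 9 marker lists in each library, divided by the list's WT mean (horizontal log axis; colour for genotype, shape for library number). Neutrophil, resident macrophage, other classical monocyte and endothelial sums lie lower in every KO library than in every WT library. Colon epithelium and smooth muscle sums lie higher. Abundant genes weigh most in a sum. Of single tested genes, 11 of 14 neutrophil, 1 of 16 resident macrophage (Apoe), 9 of 20 classical monocyte and 6 of 10 endothelial genes lay lower without overlap. The share of all genes tested was 10.2%. Higher without overlap were 1 of 11 epithelium and 5 of 10 smooth muscle genes. No share over all genes was taken on that side, so these counts are a description only. Fn1, Ms4a8a, Ctss and Smpdl3a, abundant in the classical monocyte list, each overlapped.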

How the data were processed

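RNA sequencing of colon was analysed in 3 KO and 3 WT libraries. Per the labels' protocols, total RNA was extracted with Trizol and made into libraries with a SMARTER mRNA kit. Builds named in the submitters' processing notes are mm10, mm39 and GRCm38, with no role. The sources used here give no aligner, counting program, annotation or strand setting. The authors deposited whole-number read counts per gene, TPM, the log2 ratio of mean TPM, and a p-value with its false discovery rate from a comparison whose tool is not named. Positions came from GENCODE M21 (GRCm38), matched by identifier, and upstream sequences from RefSeq (GRCm38.p6), which matched 5 of 6 members looked up (Arg1 did not match).

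Counts as deposited were tested with edgeR 4.0.16 in R 4.3.3 (TMM factors, default filter by group, 14553 genes, quasi-likelihood F-test, adjusted p below 0.05), whose standard errors were derived from the F statistic. Log2 fold changes given with a standard error are edgeR's throughout, also beside a DESeq2 result. The fits were tested on simulated data. Total counts were 15786214 to 22932125 per library. Every pair of libraries differed beyond sampling noise (smallest chi-square per degree of freedom 42.95). Alternatives were DESeq2 1.42.0, limma 3.58.1 (voom, and log2(TPM + 1)), other scaling factors and filters, the replicate number as a block, and leaving out each library. DESeq2 without KO 3 was chosen after seeing the data. The members and the 23 gene lists were chosen with earlier results of these data known, and lists are described by counts and medians only. The genes named were the members, Adamts4, Ly6c1, Lyz1, partner genes by role and the 2 most similar profiles per member. Some list genes with the smallest p were also named, while other lists, such as the neutrophil list, were mainly counted. Other list genes named for their role were chosen after their values were seen. A gene of the colon epithelium list is not reported here and was left out of that list.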

Additional observations from a re-analysis of the deposited data

How the results depend on the processing

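The 0 calls among the 7 genes in edgeR held with other scaling factors, filters, the replicate block, limma and each library left out, and only DESeq2 on all libraries gave 1 lower (Itgam). Calls over all genes were 22 lower and 1 higher. They were 431 and 106 with DESeq2, 9 and 0 with median-ratio factors, 66 and 3 without a count filter and 3 and 0 with limma on log2(TPM + 1). Upper-quartile factors gave 38 lower and limma-voom 2 higher. Leaving out a library gave 1 to 29 lower and 0 to 2 higher in edgeR, and 369 and 111 in DESeq2 without KO 3. With the replicate number as a block there were 78 lower and 3 higher. The deviations of same-numbered libraries from their group means correlated at -0.42, -0.15 and -0.43. These values gave no sign that the numbers pair the libraries, but cannot exclude it. Arg1 turned direction, to 0.0047 in limma-voom, 0.0076 with the replicate block, 0.19 without KO 2 and 0.72 without WT 1, with a lowest value of -0.53 without KO 3. Directions of the other 6 genes were kept in all 15 alternatives. The cause was not tested. Standard errors were 0.61 for Ly6c2 (253 to 2107 reads per library), 0.57 for Arg1 (25 to 129) and 0.51 for Ccr2 (46 to 242), and the part of depth in them was not tested.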
